A study of Mus musculus with 2 samples.

Results

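Cycling immature neutrophils were 458 of the 4921 barcodes in the 2 deposited tables, 239 from the control library and 219 from the OTM library. Each barcode stands for 1 droplet and, in most cases, 1 cell, and they were chosen by measured values, not sorted as a population. A barcode had to hold at least 200 genes and at most 5% of mitochondrial UMIs (unique molecular identifiers, each tagging 1 captured RNA molecule). At least 5% of its UMIs had to come from S100a8 and S100a9, under 1% from the azurophil granule genes Elane, Mpo, Prtn3 and Ctsg, and at least 0.04% from the cell cycle genes Mki67, Top2a, Birc5 and Ube2c. The study compared male C57/B6 J mice aged 8 weeks without orthodontic force (control) with mice of the same sex, strain and age whose molar had been pulled by a spring for 7 days (orthodontic tooth movement, OTM). From the alveolar bone of each group, cells carrying F4/80 and CD11b were sorted after collagenase digestion and made into 1 library of droplet RNA sequencing from the 3′ ends of transcripts. The mice for sequencing were assigned to the groups at random, and how many were pooled in each library was not given in the sources used here. With 1 library per group and cells that are not replicates, no test between the groups was possible, and every interval below covers counting error only.

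Neutrophils are made in the bone marrow in steps, and their granule proteins are made in a fixed order along those steps. Promyelocytes make the azurophil granule proteases. Myelocytes and metamyelocytes make the specific granule proteins such as cathelicidin (Camp), neutrophilic granule protein (Ngp) and lactoferrin (Ltf), and later stages make gelatinase granule proteins such as Mmp8 and Mmp9. Cell division stops around the end of the myelocyte stage, so that a neutrophil holding both specific granule transcripts and mitotic transcripts is, by textbook criteria, an immature one. F4/80 (Adgre1) and CD11b (Itgam) are usually used to gate macrophages, and CD11b is also carried by neutrophils.

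The promoters of mitotic genes and of granule genes are known for different short motifs, and 5 of them are printed here because their genes stand for the cycling, the granule and the OTM sides of these cells. The CCAAT box is bound by the factor NF-Y, the letters TTTGAA or TTCGAA form the cell cycle homology region of G2/M genes, and TTGCNNAA is a core of the C/EBP factors that drive granulocyte genes. Each run gives the 250 bases before the RefSeq start site on GRCm38.p6, 5′ to 3′ on the strand of the gene, and capitals mark any of these motifs on either strand, with overlapping matches run together. Ube2c lies on the plus strand (chr2:164769679-164769928), and the others lie on the minus strand, Top2a at chr11:99024190-99024439, Camp at chr9:109849457-109849706, Fcnb at chr2:28084879-28085128 and Saa3 at chr7:46715677-46715926.
Ube2c: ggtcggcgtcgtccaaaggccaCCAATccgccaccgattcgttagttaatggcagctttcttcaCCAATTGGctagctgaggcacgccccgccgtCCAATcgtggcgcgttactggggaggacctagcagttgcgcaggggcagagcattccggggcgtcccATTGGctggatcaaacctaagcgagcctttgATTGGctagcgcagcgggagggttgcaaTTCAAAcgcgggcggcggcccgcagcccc
Top2a: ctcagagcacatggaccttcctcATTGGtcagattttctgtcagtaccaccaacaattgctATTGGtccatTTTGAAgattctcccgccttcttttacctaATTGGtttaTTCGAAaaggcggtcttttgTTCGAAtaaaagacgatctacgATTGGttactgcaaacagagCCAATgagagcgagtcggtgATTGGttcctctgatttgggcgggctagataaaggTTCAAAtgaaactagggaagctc
Camp: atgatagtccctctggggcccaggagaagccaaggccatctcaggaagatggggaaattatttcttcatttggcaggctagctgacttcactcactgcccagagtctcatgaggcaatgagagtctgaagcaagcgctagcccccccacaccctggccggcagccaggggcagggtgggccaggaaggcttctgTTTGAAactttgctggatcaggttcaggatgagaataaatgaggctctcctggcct
Fcnb: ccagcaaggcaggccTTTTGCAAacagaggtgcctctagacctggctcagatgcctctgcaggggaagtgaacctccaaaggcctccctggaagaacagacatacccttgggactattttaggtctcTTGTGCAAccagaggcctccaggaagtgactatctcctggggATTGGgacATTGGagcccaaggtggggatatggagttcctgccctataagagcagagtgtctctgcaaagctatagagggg
Saa3: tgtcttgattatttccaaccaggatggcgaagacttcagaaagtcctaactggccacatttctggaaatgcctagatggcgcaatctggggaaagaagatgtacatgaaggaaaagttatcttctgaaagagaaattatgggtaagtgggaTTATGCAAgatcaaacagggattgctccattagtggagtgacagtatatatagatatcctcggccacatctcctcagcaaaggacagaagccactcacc
Ube2c held 6 matches to the CCAAT box and 1 to TTTGAA, and Top2a held 6 to the CCAAT box, 2 to TTTGAA and 2 to TTCGAA. Camp held 1 match to TTTGAA. Fcnb held 2 matches to the CCAAT box and 2 to TTGCNNAA, and Saa3 held 1 match to TTGCNNAA. The same window of Birc5 held none of these letters. Of all 32851 windows of this length, from 27025 genes, 33.8% held a CCAAT box, 16.0% TTTGAA, 1.34% TTCGAA, 9.56% TTGCNNAA and 6.02% a CCAAT box together with TTTGAA or TTCGAA. Among genes of the G2/M list with the 4 cycle genes of the rule, 49 of 56 were matched to 54 windows, of which 41 (75.9%) held a CCAAT box, 20 (37.0%) a CCAAT box with TTTGAA or TTCGAA and 1 (1.85%) TTGCNNAA. The specific granule list had 15 windows, of which 7 held a CCAAT box and 5 (33.3%) TTGCNNAA, and the list of gelatinase granule and mature neutrophil genes had 28, of which 15 and 7 did. A match describes the letters of a window and not a bound site.

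The deposited tables held 27998 genes, 2863 control barcodes with 14620877 UMIs and 2058 OTM barcodes with 16500733 UMIs, of which 2835 and 2052 barcodes passed the limits on genes and mitochondrial UMIs. Of the barcodes, 6 sequences occurred in both libraries, and 0 of these were cycling immature neutrophils. They made up 8.43% of kept control barcodes (95% Clopper-Pearson interval 7.43% to 9.51%) and 10.7% of kept OTM barcodes (9.37% to 12.1%). Among barcodes rich in S100a8 and S100a9 and low in azurophil genes, they were 239 of 1341 in control (17.8%, 15.8% to 20.0%) and 219 of 1153 in OTM (19.0%, 16.8% to 21.4%), and these intervals overlap. The order of the libraries depended on the filter. With at least 200 genes per 1000 UMIs, another reading of the minimum in the methods, the same rule gave 3.89% of control and 2.31% of OTM barcodes, because 144 of the 239 control and 190 of the 219 OTM cycling immature neutrophils lay below that minimum. After each barcode was thinned to 2000 UMIs, 270 of 2657 control barcodes (10.2%) and 238 of 2052 OTM barcodes (11.6%) met the rule, with 178 control and 0 OTM barcodes too shallow to be thinned.

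These barcodes were deep. The lowest control barcode held 1813 UMIs, the median 9167 and the highest 22386, against 2363, 14907 and 35240 in OTM, and the median number of genes was 1682 in control and 2183 in OTM. Pooled, they gave 2226586 control and 3248076 OTM UMIs, from which levels were computed as CPM (UMIs of a gene scaled to the same total in every group). Of the control barcodes, 17 met the cycle limit with 1 UMI of the 4 genes. Those 17 had a median of 2224 UMIs, 1.05% of UMIs from Camp, Ngp and Ltf and 0.203% from the G2/M list, against 10123 UMIs, 13.3% and 0.896% in the 193 with 6 or more cycle UMIs. In OTM, 2 barcodes met the limit with 1 UMI and 204 with 6 or more. The members nearest to the cycle limit had 0.0405% to 0.0415% in control and 0.0404% to 0.0415% in OTM, and the nearest barcodes outside it 0.0381% to 0.0400% and 0.0374% to 0.0398%. For S100a8 and S100a9, the nearest inside and outside were 5.15% and 4.85% in control and 5.72% and 4.98% in OTM. For the azurophil genes they were 0.942% and 1.04% in control and 0.864% and 1.17% in OTM.

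The label was checked against the markers of neutrophils and of other cells. S100a8 (ENSMUSG00000056054), which forms calprotectin with S100a9, spans positions 90668978 to 90670035 of chromosome 3 (GRCm38) and was at 201196 CPM in control and 177609 CPM in OTM, levels that the rule itself required to be high. Birc5 and Ube2c were likewise in the rule, which left Camp and Fcnb as the markers outside it. Camp (ENSMUSG00000038357, chromosome 9, 109847379 to 109849617), the cathelicidin of specific granules, was at 68341 CPM in control and 50665 CPM in OTM, against 709 and 544 CPM in other cycling barcodes. Fcnb (ENSMUSG00000026835, chromosome 2, 28076378 to 28084885), a ficolin of myeloid cells in the marrow, was at 515 and 430 CPM against 20.1 and 19.2 CPM. Birc5 (ENSMUSG00000017716, chromosome 11, 117849251 to 117855743), the survivin subunit of the chromosomal passenger complex, was at 389 CPM in control and 333 CPM in OTM. Ube2c (ENSMUSG00000001403, chromosome 2, 164769898 to 164778822), the E2 enzyme of the anaphase-promoting complex, was at 604 and 619 CPM. The sort antigen gene Adgre1 was low, at 8.98 CPM in control and 9.54 CPM in OTM, against 31.7 and 36.3 CPM in cycling barcodes poor in S100a8 and S100a9. Itgam was not analysed here.

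Some of these barcodes also carried transcripts of monocytes. The summed share of a list of monocyte and macrophage genes reached 0.3% of UMIs in 18 of 239 control and 31 of 219 OTM barcodes, and 1% in 5 and 4. Csf1r, the receptor that defines monocytes and macrophages, had no UMI in 216 of 239 and 197 of 219. The 18 control barcodes with the list at 0.3% or above held Ms4a6c at 549 CPM and the 31 OTM barcodes at 826 CPM, against 33.7 and 39.5 CPM in the rest. Their median share of Camp, Ngp and Ltf was 9.36% in control and 2.57% in OTM, against 13.4% and 14.01%. Barcodes with under 3% of Camp, Ngp and Ltf numbered 19 in control and 20 in OTM, of which 5 and 16 also carried the monocyte list. The name immature neutrophil therefore rests on specific granule transcripts in 220 control and 199 OTM barcodes, and the remaining barcodes met the rule through S100a8 and S100a9. Summed over all these barcodes, the monocyte and macrophage list was at 1484 CPM in control and 1637 CPM in OTM. Markers of B and T cells were mostly near 0. Hemoglobin or B cell genes reached 1% of UMIs in 0 barcodes of either library, Cd79a had 1 UMI in each library and Cd3e 0, although Cd3d was at 141 and 124 CPM. Main ratios of OTM to control are given below also without the 18 and 31 barcodes.

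Levels in these neutrophils were set beside 4 other groups of barcodes made by the same limits. Noncycling specific-granule neutrophils (640 control, 460 OTM) had the cycle genes under 0.04% and Camp, Ngp and Ltf at 3% or more, and noncycling granule-low neutrophils (462, 474) had those 3 genes under 3%. Azurophil-rich barcodes (64, 42) had at least 1% of Elane, Mpo, Prtn3 and Ctsg, and other cycling barcodes (232, 101) had under 5% of S100a8 and S100a9. The rule used the same counts that these comparisons use, so they describe how the groups differ and are not evidence that the groups are separate. A gene counted as higher or lower when its ratio was at least 2 or at most 0.5, among genes with at least 100 UMIs over both groups.

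**Figure D1:**
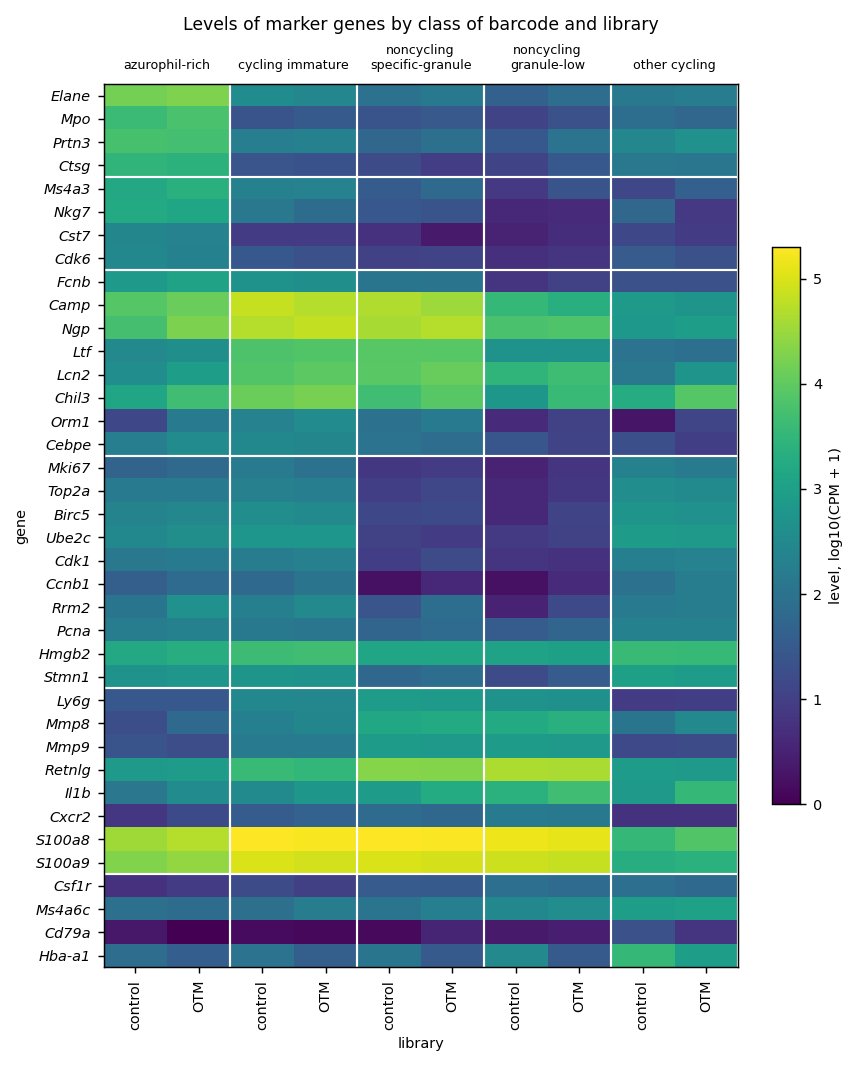
Levels of the named genes (rows) in the 5 groups of barcodes of each library (columns), as log10 of CPM plus 1. Cycling immature neutrophils hold Camp at 68341 CPM in control and 50665 CPM in OTM together with Ube2c at 604 and 619 CPM, while noncycling specific-granule neutrophils hold Camp at 47062 and 33352 CPM and Ube2c at 9.50 and 7.79 CPM.

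Specific granule genes were at high levels in cycling cells. Camp was at 68341 CPM in control (95% Poisson interval 67998 to 68685) and 50665 CPM in OTM, above the 47062 and 33352 CPM of noncycling specific-granule neutrophils and far above the 709 and 544 CPM of other cycling barcodes. Ngp, a cystatin-like protein of the same granules, was at 52063 and 63564 CPM. Lcn2, the iron-trapping lipocalin of specific granules, was at 7292 and 9156 CPM. Chil3, a chitinase-like protein of immature myeloid cells, was at 12931 and 16600 CPM against 4822 and 8556 CPM in the noncycling neutrophils. Ltf, the iron-binding lactoferrin, ran the other way, with 6731 and 7191 CPM against 8209 and 8186 CPM. As a list, specific granule genes differed little from the noncycling neutrophils, with a median ratio of 0.987 in control and 1.04 in OTM, and 2 of 17, Fcnb and Orm1, were at least 2-fold higher in both libraries. The noncycling group was chosen by Camp, Ngp and Ltf at 3% or more, so its levels of these genes were partly set. With cycling barcodes under that 3% left out too, the list medians were 1.004 in control and 1.131 in OTM. Over all genes tested in both libraries, 335 of 2813 (11.9%) were at least 2-fold higher in both and 205 (7.29%) at least 2-fold lower. Against azurophil-rich barcodes, 11 of 16 specific granule genes were higher in both libraries (all genes, 137 of 2275 or 6.02%), and against other cycling barcodes 13 of 16 were (144 of 3163 or 4.55%).

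The share of specific granule transcripts varied little over most of these barcodes. Camp, Ngp and Ltf together made up a lowest share of 0.115%, a median of 13.1% and a highest share of 19.9% of a control barcode's UMIs, while the lowest and highest shares in OTM were 0.0618% and 19.6%, and the means were 12.2% (SD 4.28, n = 239) in control and 12.2% (SD 4.85, n = 219) in OTM. The middle 50% of barcodes lay between 11.2% and 14.8% in control and between 10.4% and 15.7% in OTM. S100a8 and S100a9 together had medians of 31.7% and 28.8%.

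Mitotic genes were the other side of the profile. In the G2/M list, which leaves out the 4 cycle genes of the rule, 24 of 25 genes (all but Lbr) were at least 2-fold above the noncycling specific-granule neutrophils in control, where 444 of 2880 genes (15.4%) were higher and 314 (10.9%) lower. In OTM 31 of 32 were, where 596 of 3490 (17.1%) were higher and 299 (8.57%) lower. The median ratio of the list was 14.4 in control and 12.6 in OTM. This follows in part from the choice of members by other genes of the same program. Cyclin B1 (Ccnb1), which with Cdk1 drives entry into mitosis, led the control comparison with 139 against 2 UMIs, a ratio of 85.5 with a counting interval of 23.2 to 713, and had 358 against 10 UMIs in OTM. Cdk1 itself was at 171 and 202 CPM, 19.5-fold and 12.5-fold above the noncycling neutrophils. The motor Cenpe, the spindle assembly factor Tpx2, the passenger subunit Cdca8 and the phosphatase Cdkn3 followed in control, and Aurkb, Prc1, Nusap1 and Depdc1a stood with Ccnb1 at the top in OTM. Against azurophil-rich barcodes, which were not chosen on cycle genes, 1 of 27 G2/M genes was higher (Hmgb2) and 1 lower (Cks1b) in both libraries. Of 16 S phase genes, 3 were lower (Mcm3, Mcm6 and Rfc2). Over all genes there, 6.02% were higher and 22.3% lower in both. Against other cycling barcodes, 0 of 37 G2/M genes were higher and 3 lower (Cks1b, Tmpo and Ncapd2), beside 4.55% and 32.7% of all genes. Most G2/M genes were therefore within 2-fold of their levels in those groups.

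**Figure D2:**
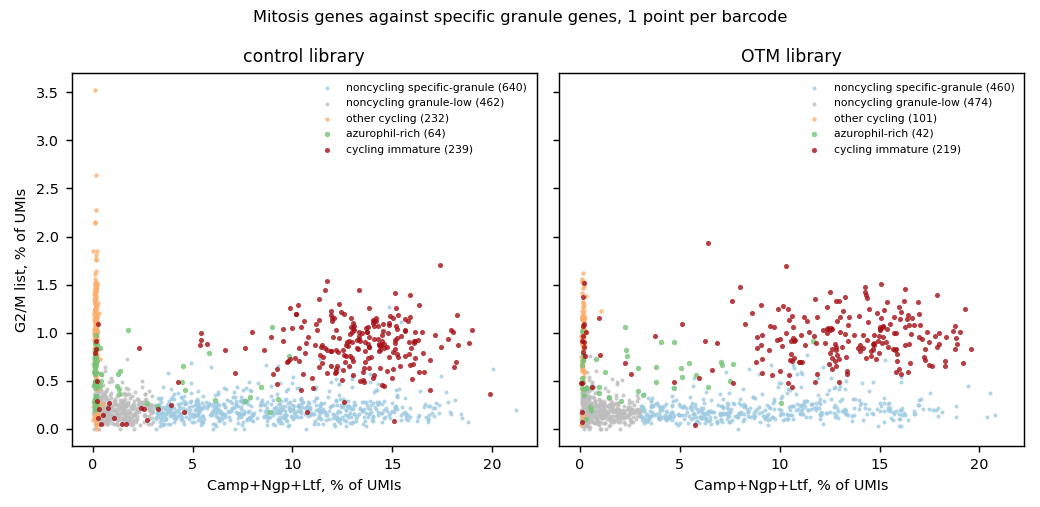
Share of UMIs from the G2/M list (y axis, percent) against the share from Camp, Ngp and Ltf (x axis, percent) for each barcode of the 5 groups, control and OTM apart. For cycling immature neutrophils, the medians on the y axis are 0.865% in control and 0.928% in OTM, and the means on the x axis are 12.2% in both. Of the points of cycling immature neutrophils, 19 control and 20 OTM lie below 3% on the x axis.

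Fewer UMIs came from the S phase list than from the G2/M list. After thinning to 2000 UMIs, 51 of 234 control barcodes (21.8%) and 43 of 219 OTM barcodes (19.6%) held no UMI of the S phase list, 62 (26.5%) and 70 (32.0%) held 5 or more, and the median was 2 in both. For the G2/M list the medians were 17 and 18 UMIs, and 0 barcodes were without one. Holding a UMI of this list did not mark cycling. At equal depth, 96.92% and 96.96% of noncycling specific-granule neutrophils held one, as did 99.16% and 96.41% of granule-low neutrophils. The level of the list did differ. Before thinning it summed to 8599 and 9350 CPM, against 2195 and 2268 CPM in noncycling specific-granule neutrophils. The lists differ in number of genes and in the level of each gene, and the rule chose barcodes by genes that peak in G2 and mitosis. In control 14 of 15 S phase genes were at least 2-fold above the noncycling neutrophils (median 3.86) and in OTM 13 of 19 (median 2.66). Rrm2, the small subunit of ribonucleotide reductase, was at 190 and 319 CPM, and Pcna, the sliding clamp of DNA polymerase, at 141 and 121 CPM. Over barcodes, the S phase and G2/M shares had a Spearman rho of 0.061 in control (n = 216) and 0.070 in OTM, values that describe sparse counts from 1 library each.

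Of the cyclins, their kinases and inhibitors, 0 of 11 genes were higher and 2 lower than in the azurophil-rich barcodes in both libraries, where 507 of 2275 genes (22.3%) were lower. Cdk6, a partner kinase of the D-type cyclins, was at 27.4 and 20.0 CPM against 299 and 211 CPM in the azurophil-rich barcodes, a ratio of 0.0917 (0.0682 to 0.122) in control and 0.095 (0.0696 to 0.129) in OTM. Thinned to equal depth, 3.85% and 6.39% of the neutrophils held a Cdk6 UMI against 53.1% and 38.1%, and other cycling barcodes held it in 3.52% and 2.97%. Cdk4 was at 25.6 and 26.8 CPM against 205 and 165 CPM, and Ccnd2 at 6.74 and 1.54 CPM against 66.6 and 31.4 CPM. Ccnd3, another D-type cyclin, was at 216 and 269 CPM against 120 and 240 CPM. Ccnd1 had 1 and 6 UMIs in all. Of the INK4 inhibitors of these kinases, Cdkn2c (p18) was at 35.5 and 42.8 CPM, against 2.19 and 4.04 CPM in noncycling specific-granule neutrophils and 2.38 and 12.6 CPM in azurophil-rich barcodes, and Cdkn2d (p19) was at 193 and 226 CPM, 2.09-fold and 2.30-fold above the noncycling neutrophils. The antiproliferative genes Btg1 and Btg2 were lower than in noncycling neutrophils, Btg1 at 526 and 530 CPM against 1173 and 1272 CPM, and Btg2 at 240 and 208 CPM against 659 and 640 CPM.

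Fcnb, counted above in the specific granule list, and some early granulocyte genes were present at intermediate levels. Fcnb was at 515 CPM in control (485 to 545) and 430 CPM in OTM (407 to 453), between the 112 and 106 CPM of noncycling specific-granule neutrophils and the 742 and 1117 CPM of azurophil-rich barcodes, and it was at 20.1 and 19.2 CPM in other cycling barcodes. At equal depth, 43.2% and 35.6% of these cells held an Fcnb UMI, against 6.33% and 7.83% of noncycling specific-granule neutrophils and 4.85% and 3.96% of other cycling barcodes. Ms4a3, a marker of granulocyte and monocyte progenitors, was at 217 and 228 CPM against 33.6 and 64.3 CPM in the noncycling neutrophils and 1582 and 2277 CPM in the azurophil-rich barcodes. Nkg7 followed the same order with 133 and 74.5 CPM, then 27.0 and 23.4 CPM, then 1736 and 1400 CPM. Of the early granulocyte list, 3 of 8 genes (Ms4a3, Nkg7 and Prss57) were higher than in noncycling neutrophils in both libraries, beside 11.9% of all genes. In the same list 7 of 9 were lower than in azurophil-rich barcodes, a comparison in which 22.3% of all genes were lower. Elane, Mpo, Prtn3 and Ctsg were limited by the rule and were at 377, 23.4, 181 and 24.3 CPM in control.

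Among transcription factors of granulopoiesis, Cebpe, which drives specific granule genes, was at 301 and 273 CPM, 2.91-fold (2.53 to 3.35) and 3.55-fold (3.09 to 4.08) above the noncycling specific-granule neutrophils. Gfi1, a repressor needed for neutrophil commitment, was near its detection limit with 10 UMIs in each library. Cebpb, the C/EBP factor of later and inflammatory granulocytes, was at 1617 and 1458 CPM against 3376 and 2805 CPM in noncycling neutrophils. Myb, a factor of progenitors, was at 22.0 and 15.1 CPM against 121 and 72.3 CPM in the azurophil-rich barcodes. Myc had 3 UMIs in control and 0 in OTM against 46.4 and 44.0 CPM there.

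Genes of later neutrophils were lower. In control 25 of 29 genes of the gelatinase granule and mature neutrophil list were at most 0.5-fold of the noncycling specific-granule level (median 0.374) and in OTM 18 of 28 (median 0.395), with 18 of 28 lower in both. Mmp8, neutrophil collagenase, was at 197 and 267 CPM against 1432 and 1767 CPM, and Mmp9, gelatinase B, at 151 and 152 CPM against 832 and 751 CPM. Retnlg, a resistin-like gene of mature neutrophils, was at 3875 and 3286 CPM, against 21873 and 20415 CPM in noncycling specific-granule neutrophils and 44360 and 42648 CPM in granule-low neutrophils. Ly6g, the antigen of the Ly6G antibody, was at 299 and 284 CPM against 824 and 729 CPM. Against the azurophil-rich barcodes, the same list was higher, with 13 of 22 genes in both libraries, beside 6.02% of all genes. Trimmed mean (TMM) scaling shifted log2 ratios against the noncycling neutrophils by -0.288 in control and -0.358 in OTM. Under TMM the split over all genes turned from 444 higher and 314 lower to 285 and 483 in control, and from 596 and 299 to 317 and 497 in OTM, with 27 of 29 mature genes lower and 24 of 25 G2/M genes higher in control. The specific granule list went from a median of 0.987 to 0.808 in control and from 1.04 to 0.809 in OTM, and its genes at least 2-fold higher from 3 to 2 and from 2 to 1 of 17.

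**Figure D3:**
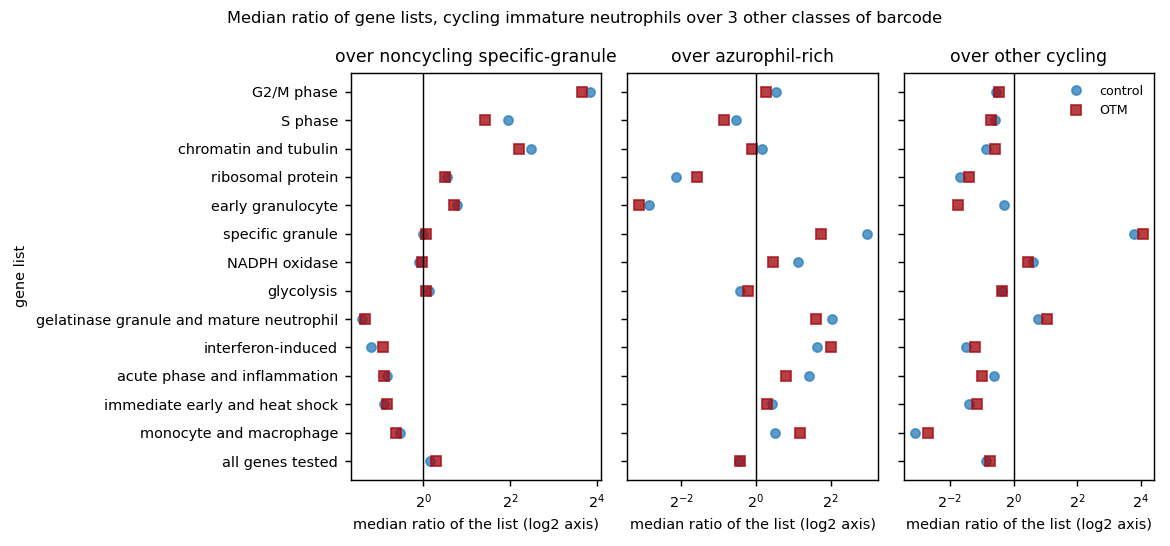
Median ratio of each gene list in cycling immature neutrophils over noncycling specific-granule neutrophils, azurophil-rich barcodes and other cycling barcodes, control and OTM apart (x axis, log scale). The G2/M list is at 14.4 and 12.6 against the noncycling neutrophils, where the mature list is at 0.374 and 0.395.

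Of the interferon list, 4 of 8 genes (Isg15, Slfn4, Zbp1 and Ifi27l2a) were lower than in noncycling specific-granule neutrophils in both libraries, as were 6 of 15 of the acute phase and inflammation list and 205 of 2813 (7.29%) of all genes. Ifi27l2a was at 641 and 403 CPM with ratios of 0.377 and 0.473. The chemokine Cxcl2 was at ratios of 0.312 and 0.305 and the interleukin 1 receptor antagonist Il1rn at 0.270 and 0.232. Of the NADPH oxidase subunits, which make up the enzyme of the respiratory burst, 0 of 6 genes passed either limit (with TMM scaling 1 of 6 was lower), and Cybb was at ratios of 0.830 and 0.984. Ribosomal protein genes were higher by a median of 1.46 and 1.41 than in noncycling neutrophils and lower than in azurophil-rich barcodes, with medians of 0.225 and 0.333. Against the noncycling neutrophils, the medians over all genes were 1.11 and 1.22, and 3 of 88 and 2 of 91 ribosomal genes passed 2-fold. With TMM scaling the ribosomal medians there were 1.19 and 1.10. Chromatin and tubulin genes were higher in 15 of 18 in both libraries, among them Stmn1 at 550 and 538 CPM, Hmgn2 at 3017 and 3631 CPM and H2afz at 3810 and 3832 CPM. Lmnb1, lamin B1 of the nuclear envelope, was the 1 lower gene of that list, at 295 and 326 CPM against 803 and 909 CPM.

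The genes furthest from the other groups by ratio included markers of other cell types. The lowest ratios against noncycling neutrophils were those of the basophil proteases Prss34 (1 against 371 UMIs) and Mcpt8 (2 against 293), then Nt5e, Stfa3 and Chil5 in control, and of the complement genes C1qb, C1qc and C1qa with Ccl7 and Pf4 in OTM. Tmem45a2 was high against the azurophil-rich barcodes in both libraries, with 100 UMIs against 0 in control and 173 against 0 in OTM. Inhba, St3gal5, Siglece and Ltf were the other 4 in control, and the same comparison was led in OTM also by Stfa2 and Stfa3. Lowest there were Srm and Phgdh, of polyamine and serine synthesis, with Cst7, Mif and C1qbp in control, and Cst7, Nkg7, Ramp1, Gstm1 and Prss57 in OTM. Orm1, Camp, Tmem45a2, Wfdc21 and Ngp led against the other cycling barcodes in control and Tesc, Ppp1r42, Orm2, Klf5 and Itgb2l, each with 0 UMIs in the other group, in OTM. Lowest were the B lineage genes Ebf1, Ly6d and Vpreb3 with Rassf4 and Ctla2a in control, and Car2, Car1, Hbb-bt, Hba-a1 and Emp1 in OTM. Of all genes, 1033 of 3163 (32.7%) were lower than in other cycling barcodes in both libraries, including 13 of 16 monocyte and macrophage genes.

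Ordering the neutrophils by their share of Ltf showed how the other genes varied among them. Barcodes with the monocyte list at 0.3% or more or with under 3% of granule genes were left out, and the rest were cut into bins of 69, 69 and 69 control barcodes and 62, 61 and 61 OTM barcodes with low, middle and high Ltf. The bins had similar depth, with median UMIs of 9026, 9379 and 9318 in control and 16249, 13229 and 14528 in OTM. Fcnb, Elane and Ms4a3 were concentrated in the low bin. Fcnb was at 1030, 314 and 300.1 CPM from low to high Ltf in control and at 847, 242 and 340 CPM in OTM. Elane, whose level the rule limited, was at 1110, 60.6 and 26.9 CPM and at 686, 37.3 and 16.3 CPM, and over all 239 control barcodes 5 held 42.1% of its UMIs and the median was 0. Ms4a3 was at 442, 135 and 104 CPM and at 457, 159 and 119 CPM. Cebpe declined less, from 389 over 311 to 264 CPM in control and from 391 over 300 to 208 CPM in OTM (299.5 CPM in the middle bin).

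Some later genes ran the opposite way. Ly6g was at 162, 308 and 447 CPM in control and at 140, 294 and 504 CPM in OTM, and Cd177, a surface glycoprotein of neutrophils, was at 287, 522 and 670 CPM and at 616, 867 and 876 CPM. Ribosomal proteins made up 93160 CPM in the low bin, 54075 in the middle and 47825 in the high bin of control, and 96062, 58078 and 44676 CPM in OTM. Mmp8 was at 147, 170 and 182 CPM in control, but at 163, 283 and 157 CPM in OTM, where the middle bin was highest. The G2/M list varied little over the same bins, with 8084, 9049 and 9146 CPM in control and 9806, 9803 and 9436 CPM in OTM. The S phase list was highest in the low bin, with 1947, 1346 and 1407 CPM and 1975, 1439 and 1779 CPM. Ltf was the ordering variable, so its own levels and the levels of genes that share its counts are descriptions of these barcodes.

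**Figure D4:**
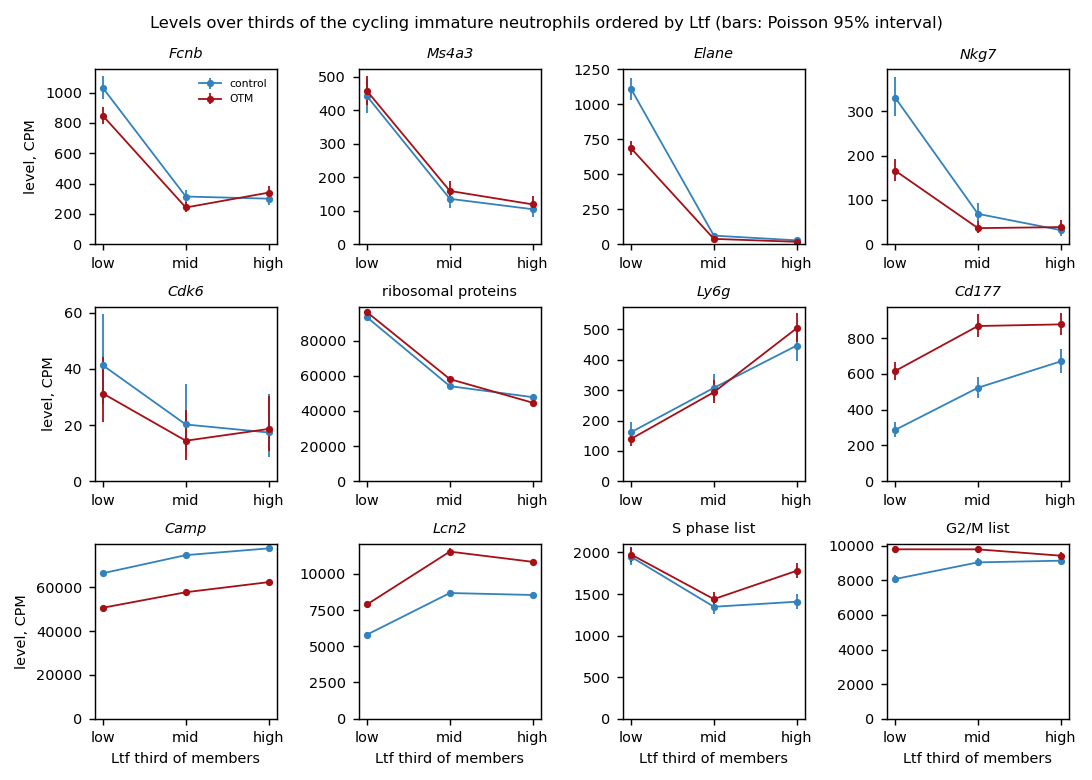
Levels (y axis, CPM, with 95% Poisson intervals) of 12 genes and gene lists over the bins of low, middle and high Ltf share (x axis), control and OTM apart, without barcodes carrying the monocyte list or low in granule genes. Fcnb and Elane are highest in the low bin, Ly6g in the high bin, and the G2/M list lies between 8084 and 9806 CPM in all 6 bins.

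In the comparison of OTM with control, 62 of 3306 genes (1.88%) were at least 2-fold higher in OTM and 24 (0.726%) at least 2-fold lower, with a median ratio of 1.05 over all genes tested. Without the 18 control and 31 OTM barcodes with the monocyte list, 34 of 2845 were higher and 30 lower. The cell cycle lists did not pass the limit in either direction, with 0 of 26 S phase genes (median 1.06) and 0 of 40 G2/M genes (median 1.10). Among cyclins, Ccnb1 was at 62.4 CPM in control and 110 CPM in OTM, a ratio of 1.77 (1.45 to 2.16), and 1.81 without the monocyte-list barcodes. The specific granule list had 1 of 17 higher (median 1.26), Itgb2l with a ratio of 2.49, while Camp was at 0.741-fold and Ngp at 1.22-fold of control.

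Saa3, an acute phase apolipoprotein, had the highest ratio. It lies on chromosome 7 from 46711998 to 46715700, and it was at 32.8 CPM in control and 801 CPM in OTM, a ratio of 24.4 (19.4 to 31.3). UMIs of Saa3 were found in 30 of 239 control and 188 of 219 OTM barcodes, at median depths of 9167 and 14907 UMIs. In OTM, 65.0% of the Saa3 UMIs lay in the 31 barcodes with the monocyte list, and without those and the 18 control barcodes the ratio was 12.4 (9.40 to 16.6). Saa3 was higher in OTM in each other group too, by 20.2 in noncycling specific-granule, 10.2 in granule-low, 17.1 in azurophil-rich and 42.0 in other cycling barcodes, all drawn from the same 2 libraries.

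A cluster of stefin genes on chromosome 16 was next. BC100530 (36359382 to 36367748), a cysteine protease inhibitor of the stefin A family, was at 187 CPM in control and 1727 CPM in OTM, a ratio of 9.24 (8.36 to 10.2), with UMIs in 76 of 239 and 146 of 219 barcodes. Stfa3 (36450537 to 36455392) had 15 and 290 UMIs and a ratio of 13.2 (7.90 to 24.0), BC117090 (36321665 to 36334332) had 19 and 288 UMIs, and Stfa2 (36403992 to 36408457) had 35 and 275. The ratio of Stfa2 ranged from 1.21 to 24.8 and that of BC117090 from 2.95 to 18.9 over the alternatives, and 5 control barcodes held 91.4% of the control UMIs of Stfa2. Stfa2l1 had a ratio of 4.44 and Gm5483 of 3.00. How reads shared by these closely related neighbours were counted was not checked, so their single values are uncertain. The barcodes with the monocyte list held 4.08% of the OTM UMIs of BC100530 and 5.17% of those of Stfa3, and without them the ratios were as large, at 10.2 and 13.4. BC100530 was higher in OTM in the other groups as well, 6.08-fold in noncycling specific-granule and 3.56-fold in granule-low neutrophils.

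The other genes with the highest ratios were Ccl5 (7.92), Ifitm1 (7.56), Il6 (5.94), Hopx (5.17) and Asprv1 (4.45). Of these, Asprv1, a skin-type aspartic protease also found in neutrophils, stayed at 4.45 (2.99 to 6.84) without the monocyte-list barcodes. The chemokine Ccl5 dropped to 2.77 (1.301 to 6.566) and the interferon-induced membrane protein Ifitm1 to 1.92 (1.267 to 2.989). The cytokine Il6 dropped to 4.64 (2.282 to 10.67) and the homeodomain protein Hopx to 2.30 (1.405 to 3.903). Ccl5 then rested on 34 OTM and 9 control UMIs, Il6 on 57 and 9, and Hopx on 69 and 22. Ccl5, Il6 and Hopx were therefore under the minimum of 100 UMIs over both groups. The monocyte-list barcodes held 67.3% of the Ccl5 UMIs in OTM, 79.4% of Ifitm1, 63.5% of Il6 and 73.9% of Hopx. With the minimum of 200 genes per 1000 UMIs, the log2 ratio of Il6 turned to -1.25.

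**Figure D5:**
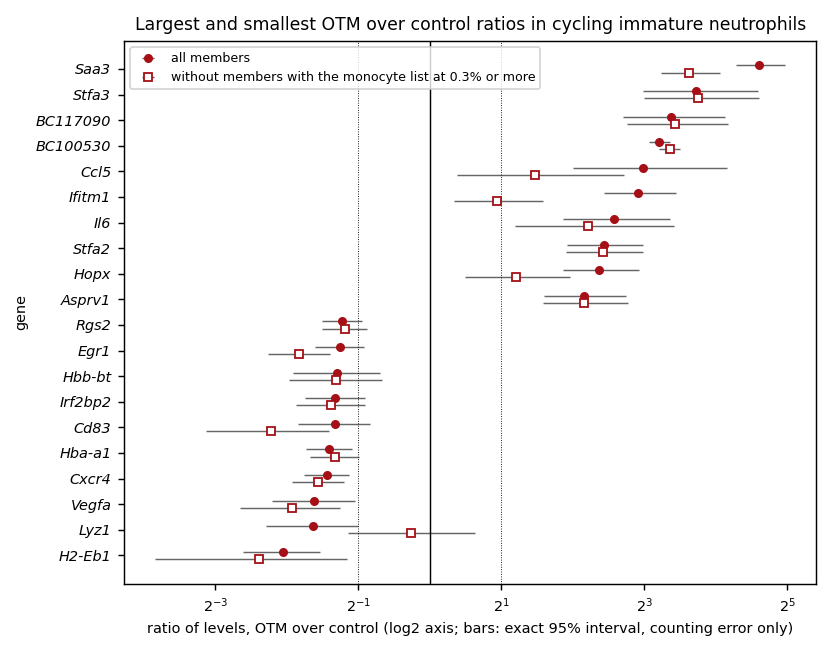
Ratio of OTM to control (x axis, log scale, with 95% counting intervals) for the 10 genes with the highest and the 10 with the lowest ratio in cycling immature neutrophils. Filled points are all barcodes and open squares leave out barcodes with the monocyte list at 0.3% or more, where Saa3 is at 12.4 in place of 24.4 and Lyz1 at 0.833 in place of 0.323.

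Genes lower in OTM included receptors and early response genes. Cxcr4, the chemokine receptor that retains neutrophils in the marrow, lies on chromosome 1 from 128588199 to 128592293 and was at 106 CPM in control and 39.1 CPM in OTM, a ratio of 0.367 (0.294 to 0.458), and 0.339 without the monocyte-list barcodes. UMIs of Cxcr4 were in 132 of 239 control and 85 of 219 OTM barcodes, although the OTM barcodes were deeper. Its ratio was 0.330 in noncycling specific-granule, 0.340 in granule-low, 0.213 in azurophil-rich and 0.374 in other cycling barcodes. Egr1 (0.418) and Rgs2 (0.425), genes of the early response to stimulation, the growth factor Vegfa (0.326) and the transcriptional regulator Irf2bp2 (0.400) were also lower. Cd83, a surface protein of cells that present antigen, was at 0.397 and without the monocyte-list barcodes at 0.213 (0.114 to 0.378). The latter ratio rested on 16 OTM and 55 control UMIs, under the minimum of 100 UMIs. The antigen presentation gene H2-Eb1 (0.240) and the lysozyme Lyz1 (0.323) rested on few barcodes, and 5 barcodes held 73.5% of the control UMIs of Lyz1. Of the control UMIs of H2-Eb1, 79.5% came from 5 barcodes and 76.9% from barcodes with the monocyte list, and without these the ratio of H2-Eb1 was 0.190 and that of Lyz1 0.833 (0.451 to 1.55). These ratios rested on 27 control and 7 OTM UMIs of H2-Eb1 and 22 and 25 of Lyz1, also under the minimum. The hemoglobin genes Hba-a1 (0.375) and Hbb-bt (0.407) were lower in OTM, and 3 of 3 erythroid genes tested were, with summed erythroid levels of 291 CPM in control and 129 CPM in OTM. Hba-a1 was also at 0.263 in noncycling specific-granule, 0.0969 in granule-low, 0.488 in azurophil-rich and 0.261 in other cycling barcodes. Hbb-bt was at 0.109 to 0.699 in these groups, all drawn from the same 2 libraries. With the minimum of 200 genes per 1000 UMIs, the log2 ratios of Lyz1, Irf2bp2 and Hbb-bt turned above 0, to 0.67, 0.10 and 0.066.

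By list, 8 of 28 gelatinase granule and mature neutrophil genes were at least 2-fold higher in OTM (median 1.34), and 7 of 28 without the monocyte-list barcodes (median 1.16). Over all genes tested, 62 of 3306 (1.88%) were higher, and 34 of 2845 without those barcodes. All 8 were the stefins BC100530, Stfa3, Stfa2, Stfa2l1 and Gm5483 with Asprv1, Fpr1 and Ifitm1. The paper reports BC100530, Stfa2, Gm5483, Asprv1 and Ifitm1 as high in a cluster of this same OTM library. The count of this list is therefore not independent of earlier results from these data. The formyl peptide receptor gene Fpr1 was at 49.4 CPM in control and 165 CPM in OTM, 3.33-fold higher (2.71 to 4.13) and 3.04-fold without those barcodes. Other mature genes stayed close to control, with Mmp8 at 1.36, Mmp9 at 1.00, Retnlg at 0.848 and Ly6g at 0.95 of control, and gelatinase and stefin genes of 1 list therefore did not share a ratio. In the acute phase and inflammation list 2 of 15 were higher, Saa3 and Lrg1, a leucine-rich glycoprotein stored in neutrophil granules, and 1 was lower, Ddit3 at 0.468. Lrg1 was at 507 and 1082 CPM, a ratio of 2.14 (2.00 to 2.29), and 2.20 without them. Hp, haptoglobin, was at 2063 and 3115 CPM and Il1b at 342 and 624 CPM, but Il1b had a ratio of 1.21 without the monocyte-list barcodes and 1.82 with them.

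Glycolysis genes had a median ratio of 1.33 with 0 of 11 past the limit, led by Gpi1 at 361 and 606 CPM and Pkm at 644 and 996 CPM. Interferon-induced genes had a median of 0.809 with 0 of 7 past the limit, and Ifi27l2a was at 641 CPM in control and 403 CPM in OTM. Without the monocyte-list barcodes the median was 0.645 with 1 of 5 lower, Ifi27l2a at 0.419 (0.380 to 0.463) against 0.629 with them. The antiviral gene Rsad2 had 45 and 12 UMIs, under the minimum of 100 UMIs. Of the immediate early and heat shock list, 2 of 14 were lower, Egr1 and Fosb, and Fos was at 0.527. Without those barcodes 3 of 13 were lower, among them Egr1 at 0.282 and Fos at 0.437, and 1 was higher, Jun at 2.15, while Fosb (0.244) was under the minimum with 60 UMIs in control and 20 in OTM. Anxa1, an annexin that limits inflammation, was at 3703 and 5771 CPM. Ctsc, the protease that activates the azurophil serine proteases, had a ratio of 2.02 with and without the monocyte-list barcodes. Those barcodes held 71.55% of its control and 73.39% of its OTM UMIs, and 33 and 91 UMIs remained without them. The monocyte and macrophage list had 1 of 12 higher, F13a1 (median 1.31), and 0 of 7 without those barcodes (median 0.895).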

How the data were processed

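The 2 tables hold UMI counts per gene and barcode. According to the methods, the authors used Cell Ranger 3.0.0 and the mm10 build, and the deposited counts are raw. The processing notes also name Seurat 3.0.0, which was not used here. The limits on genes, mitochondrial UMIs and marker shares were applied to every barcode, and UMIs were summed per group and library. Levels are CPM of these sums with exact Poisson 95% intervals, ratios have conditional binomial intervals (a log2 ratio adds 0.5 UMIs to each count), and shares have Clopper-Pearson intervals. Thinning drew 2000 UMIs per barcode. Members and gene lists were chosen with earlier results of these data known. Named genes are the markers and the genes of the rule, members of the lists, and the 10 highest and 10 lowest ratios of OTM to control (5 and 5 for other comparisons). Jun was named after its values were seen. Doublets were not removed, since Scrublet in scanpy 1.11.5 called 1 control and 6 OTM barcodes, too few to judge them by. Gene positions were looked up by Ensembl identifier in the GENCODE vM21 annotation (GRCm38). Python 3.11.15, numpy 2.4.6, scipy 1.17.1, pandas 2.3.3 and edgeR 4.0.16 (R 4.3.3, TMM factors alone) were used. On simulated counts for the comparison of OTM with control, 50 of 50 genes changed 4-fold and 38 of 38 changed 0.25-fold passed the limits, 1 of 3100 unchanged genes did, and intervals held the true ratio for 95.0% of unchanged genes. Of genes changed 1.5-fold, 2 of 50 passed, and intervals held the true ratio for 90.0%. These counts were drawn from the Poisson model that the intervals assume. They therefore checked the computation and not the effect of UMIs that cluster in few barcodes. Alternatives were other limits for each part of the rule, thinning, other scalings and other minimum counts.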

Additional observations from a re-analysis of the deposited data

Results flagged for a closer look

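Jun, a subunit of the AP-1 transcription factor, was on opposite sides of 1 in cycling immature neutrophils and in noncycling specific-granule neutrophils. In the cycling cells it had 236 UMIs in control and 673 in OTM, a ratio of OTM to control of 1.955 (95% counting interval 1.68 to 2.28). In the noncycling cells it had 366 and 343 UMIs, a ratio of 0.740 (0.637 to 0.860). Of 62 genes compared in this way, with the genes of the rule left out, it was the 1 gene whose intervals lay on opposite sides. Elane, a gene of the rule, also did, at 0.733 (0.666 to 0.806) and 1.37 (1.18 to 1.60). Of the OTM UMIs of Jun in the cycling cells, 33.4% came from 5 barcodes and 104 from 1, against 19.9% from 5 barcodes in control. Without the barcodes carrying the monocyte list, the ratio in the cycling cells was 2.15 (1.83 to 2.54). Its partner genes Fos (0.527) and Fosb (0.462) were lower in OTM in the cycling cells, and Fos was at 0.480 in the noncycling ones. With 1 library per group the difference between the groups was not tested.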

How the results depend on the processing

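Of 28 alternative values for the share of cycling immature neutrophils, 20 lay within the interval of the reported one. A cycle minimum of 0.02% gave 10.3% in control and 13.1% in OTM, and 0.08% gave 6.46% and 8.29%. With 200 genes per 1000 UMIs the shares were 3.89% and 2.31%, after thinning the control share was 10.2%, and without the monocyte-list barcodes, an alternative chosen after seeing the data, the OTM share was 9.16%. Of 118 counts of genes past 2-fold, 95 stayed within 1.5 times. For OTM over control, 20 were higher and 7 lower with 200 genes per 1000 UMIs, 116 and 69 with a minimum of 50 UMIs, 38 and 9 with 200, and 34 were higher without the monocyte-list barcodes. Against noncycling specific-granule neutrophils, counts higher and lower were 252 and 197 in control and 64 and 59 in OTM with 200 genes per 1000 UMIs, and 285 and 483 in control and 317 and 497 in OTM with TMM. A minimum of 50 UMIs gave 780 and 1002 higher and 200 gave 223 and 315 (control, OTM). In OTM, 397 were higher at a cycle minimum of 0.08% and 185 lower after thinning. Against all noncycling barcodes rich in S100a8 and S100a9, 595 were lower in control and 542 in OTM. Of 373 log2 ratios of named genes, 324 moved little and 4 changed sign, all with 200 genes per 1000 UMIs, Il6 to -1.25, Lyz1 to 0.67, Irf2bp2 to 0.10 and Hbb-bt to 0.066. Fewer barcodes or another minimum change these counts by construction, and other causes were not tested. No paired analysis was possible because each group had 1 library. Depth limits low genes, since a count of 0 allows up to 3 UMIs, and 1 library per group limits every comparison.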
